A study of Mus musculus with 32 samples.

Results

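Among the 18138 gene symbols of the array, 8 were chosen from the transporters that load, clear or supply glutamate and GABA. They were taken by symbol from the deposited array table: Slc17a7, Slc17a6, Slc1a1, Slc6a11, Slc6a17, Slc6a15, Slc38a1 and Slc38a2. Together they have 13 of the 25697 probes. Of these, 9 probes of 7 genes were detected on enough arrays to be tested, among 10187 tested probes in all. Slc38a1 was not among them, its single probe being detected on 2 of 32 arrays.

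Excitatory neurons fill synaptic vesicles with glutamate through vesicular transporters. Released glutamate and GABA are cleared by sodium-coupled carriers in the membranes of neurons and astrocytes. Astrocytes turn much of the glutamate into glutamine, which neurons take back up to make transmitter again. In rodent cortex Slc17a7 (VGLUT1) is the main vesicular glutamate transporter of cortical neurons, whereas Slc17a6 (VGLUT2) is typical of thalamic and other subcortical neurons. Slc1a1 (EAAT3) carries glutamate and cysteine into neurons, and Slc6a11 (GAT3) carries GABA, mostly into astrocytes. The other members are carriers of glutamine and other neutral amino acids, Slc6a17 (NTT4) on synaptic vesicles and Slc6a15 (B0AT2), Slc38a1 (SNAT1) and Slc38a2 (SNAT2) on the cell membrane. The name of transmitter transporters thus fits Slc17a7, Slc17a6, Slc1a1 and Slc6a11 directly, and the remaining genes as suppliers of precursors.

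Frontal cortex (FCtx) of female F1 mice, labelled C57BL/6J x FVB/NJ, was profiled on Illumina MouseRef-8 v2.0 BeadChips, with 1 array per mouse. The 20 ethanol-treated mice chose between water and 20% ethanol in dark-phase sessions of 3 h over 20 days, and the 12 controls were untreated. The Methods name both directions of the cross, give no age of the F1 mice, and place sacrifice 20 h after the last session. Chips 1 and 2 each held 8 ethanol-treated mice, chip 4 held 8 controls, and chip 3 held 4 of each. On chip 3 the ethanol-treated mice A46, A47, A49 and A50 lay on every other array of the chip, starting from position A (odd positions), and controls C52, C54, C55 and C56 on the arrays between them (even positions). Chip 3 therefore separates treatment from chip but not from position, and on the other chips chip and group cannot be told apart. On each chip the odd positions held lower mouse numbers in the labels than the even positions. Within a chip, odd or even position thus cannot be told apart from the order of mouse numbers.

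Between 9480 and 11544 probes per array were detected, and arrays correlated with each other at 0.972 to 0.994. Control mouse C66 on chip 4 gave the lowest number of detected probes and the lowest median signal (146). Of 10 genes typical of cortical excitatory neurons, 7 passed the detection filter, and Neurod6 and Foxp2 were among those that did not. The dissection was described as free of olfactory bulb. Of 11 olfactory bulb marker genes on the array, 6 passed the filter, and Eomes, Tbx21, Shisa3, Dlx2 and Synpr did not. Of all 25697 probes, 10187 passed it.

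Each probe is a 50-base DNA oligonucleotide, and a level is the brightness of its beads. The probes below are given by stretches of 30 bases, since most of the genes have a single probe or probes that differ in their result. Capitals mark AATAAA, the signal read at the 3′ end of most messenger RNAs, which 1.94% of all probes on the array contain.
Slc17a7 ILMN_2618244: ttctcctgggtggttccaggccgccctcgg
Slc17a6 ILMN_2922321: tgggtatttgatctgtctggtgtcctgtgc
Slc6a11 ILMN_2752095: cacttgacactcttaacactactcatgggg
Slc1a1 ILMN_1229397: caatgtactgtattgagacactggtagctg
Slc1a1 ILMN_1225873: caggtggttctccttagtggcagtgaattg
Slc6a17 ILMN_2734160: cccccaccctgctgtacAATAAAgtgtctg
Slc6a15 ILMN_1258914: ggccatacttcctgtcccagtggtgttcat
Slc38a2 ILMN_1244123: gagcaatgcgattgtgggcagtggaatcct
Slc38a2 ILMN_2955671: catggctatctggtaacatgtcaagtgtga
Slc38a2 ILMN_2721692: gtatgtttgttttaactgaactaaAATAAA
The last of these ends on the signal and has a GC content of 26%, at or below which lie 1.82% of all probes.

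All values from here on are on a normalized log2 scale, unless they are called signal, which is the deposited brightness. A probe passed at a false discovery rate (FDR) of 1%, the threshold of the study, or at the looser FDR of 10%, both from limma with Benjamini-Hochberg adjustment over all tested probes. Levels are compared between mice for the same probe, never between probes, because probes differ in how well they bind. In pieces of tissue, fewer cells of a type and less RNA per cell cannot be told apart.

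Over all 32 arrays, 1 of 9 transporter probes passed at FDR 1%, Slc17a7, which was lower, against 8.18% of all tested probes in either direction and 4.53% lower. At FDR 10% it was joined by Slc6a17, Slc1a1 ILMN_1225873 and Slc6a11, all lower in ethanol-treated mice. That is 4 of 9, against 25.5% of all tested probes in either direction and 13.5% lower. When the arrays were instead brought to a common median (median scaling), these 3 calls were lost, with differences of -0.06 for Slc6a17, -0.05 for Slc1a1 ILMN_1225873 and -0.17 for Slc6a11 (limma adjusted p = 0.65, 0.73 and 0.35). The Slc17a7 call at FDR 1% was lost with median scaling too. There 0 transporter probes passed that threshold, against 1.24% of all tested probes. No transporter probe was higher in ethanol-treated mice by limma at either threshold, where 3.65% and 12% of all tested probes were, and 1 was at an unadjusted p below 0.05 (Slc17a6). The median absolute difference was 0.12 over the transporter probes and 0.07 over all probes.

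**Figure D1:**
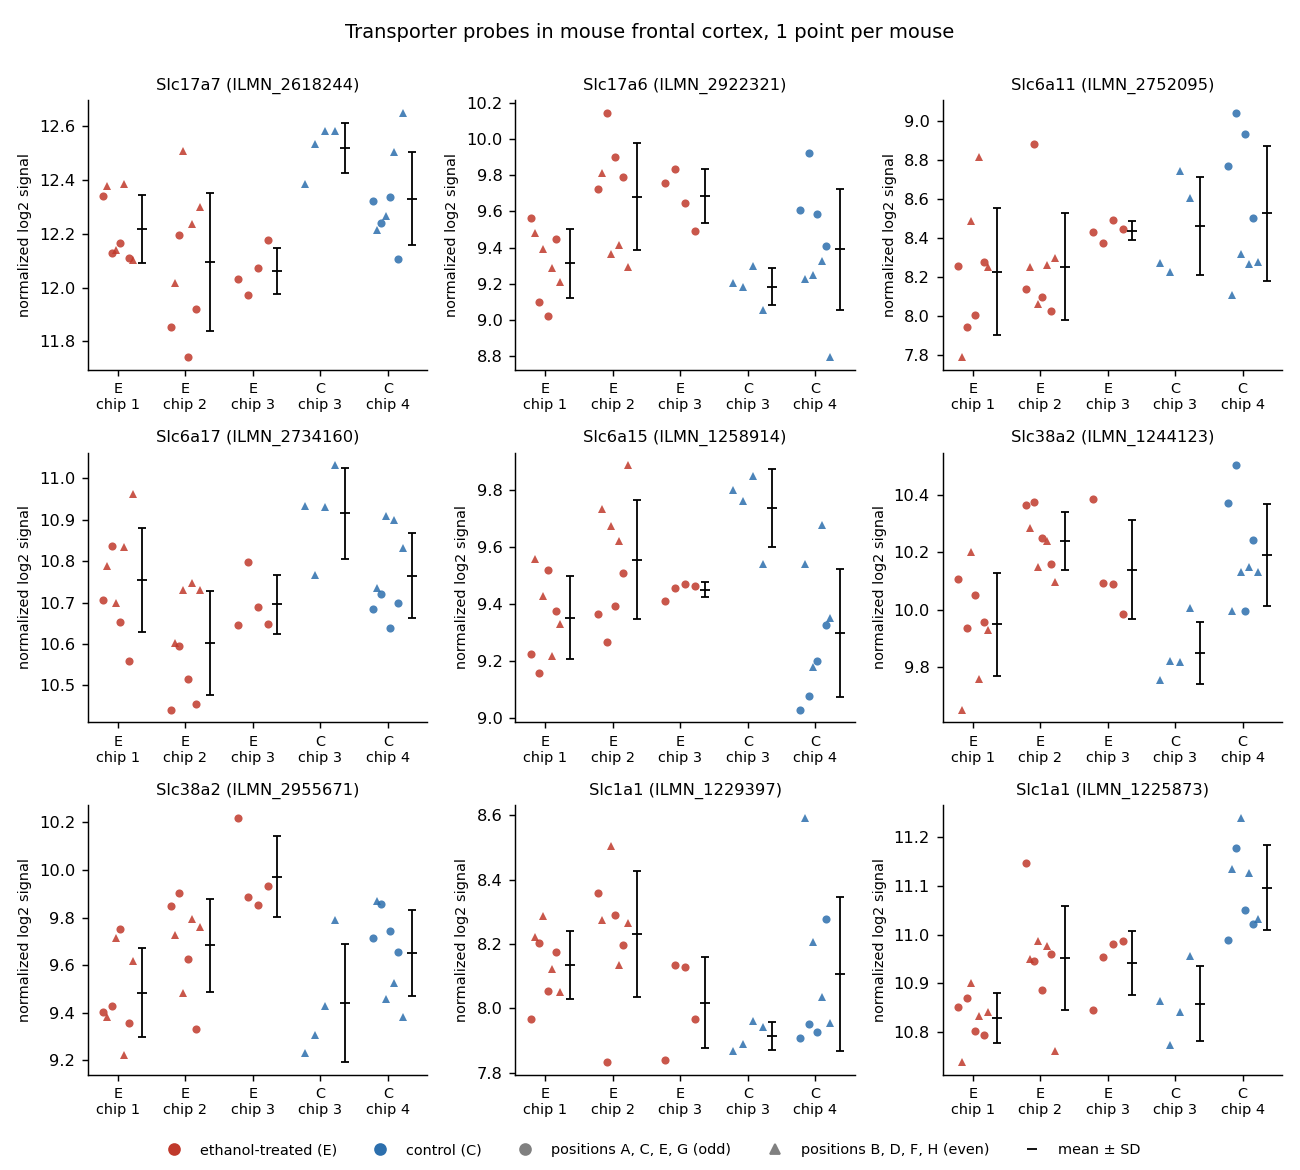
Normalized log2 signal (vertical axes) of the 9 tested transporter probes, 1 point per mouse, with ethanol-treated mice (E) in red and controls (C) in blue by chip. Circles are odd and triangles even positions, and bars give the mean ± SD. The chip 3 groups do not overlap for Slc17a7, Slc17a6, Slc6a15 and Slc38a2 ILMN_2955671, and controls of chips 3 and 4 do not overlap for Slc1a1 ILMN_1225873.

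The vesicular transporter Slc17a7 was lower in ethanol-treated mice. Its probe, placed by the array annotation at chr7:52431216-52431265 in a genome build that the annotation does not name, ranged from 11.74 to 12.51 with a median of 12.13 in the 20 ethanol-treated mice. In the 12 controls it ranged from 12.11 to 12.65 with a median of 12.36. The ranges overlapped, but 17 of 20 ethanol-treated mice lay below the control median and 8 lay below every control. The difference was -0.25 (SE 0.06, adjusted p = 0.0045 by limma), a 1.19-fold lower level.

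On chip 3 the direction was the same. Ethanol-treated mice had Slc17a7 levels of 12.03, 11.97, 12.07 and 12.18, and controls 12.38, 12.54, 12.58 and 12.58, without overlap. The difference was -0.46 (SE 0.07, limma adjusted p = 0.0015). Between chips 1 and 2 and chip 4 it was -0.17 (SE 0.08, limma adjusted p = 0.10), which missed both thresholds. The difference between these estimates, -0.28 with a 95% interval from -0.56 to -0.01, had an adjusted p of 0.18 by limma. The set of all arrays contains those of chip 3, so its result is not separate from them.

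Slc17a7 also differed between positions, in the same sense. Within chips 1, 2 and 4, where treatment does not vary inside a chip, even positions were 0.19 above odd ones (SE 0.06, limma adjusted p = 0.048). With odd or even position in the model the treatment difference was -0.20 (SE 0.06, limma adjusted p = 0.0101), which missed FDR 1% narrowly. Within odd positions it was -0.19 and within even positions -0.21, with adjusted p-values of 0.13 and 0.14 by limma. With both chip and position in the model it was -0.27 with a 95% interval from -0.51 to -0.03, and an adjusted p of 0.46 by limma. Without control mouse C66, which had the highest Slc17a7 level of all (12.65), the adjusted p over the remaining arrays was 0.0126. The direction was the same in each of these fits, and the call at FDR 1% was not. Median scaling also lost that call.

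Genes of cortical excitatory neurons were measured beside Slc17a7. Of the 7 tested, Tbr1, a transcription factor of deep-layer neurons, was lower in ethanol-treated mice by limma at an adjusted p of 0.00030, as were Fezf2 (0.0067) and Nrgn (0.0066). Tbr1 fell by 0.36, Fezf2 by 0.18 and Nrgn by 0.17. Of all tested probes 4.53% were lower at FDR 1%. The remaining genes did not pass by their brightest probe, and the median of the list was -0.09. On chip 3 the summed signal of the list, which is not normalized, was 17026 to 20288 in ethanol-treated mice and 20468 to 24679 in controls, without overlap. The median difference of the list on chip 3 was -0.05. There 2 of 7 genes were lower at FDR 10%, against 8.37% of all tested probes. Over all arrays the summed signal had a median of 19758 in ethanol-treated mice and 18309 in controls. Over the 32 arrays the mean standardized level of the list and Slc17a7 had a Pearson r of 0.32 (permutation p = 0.074, adjusted 0.088) and a Spearman rho of 0.30 (permutation p = 0.10, adjusted 0.12). Within chips r was -0.17, -0.42, 0.78 and 0.28 on chips 1 to 4. The part of these cells in the Slc17a7 result was not tested.

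Slc17a6, the second vesicular transporter, pointed the other way. Its probe (chr7:58926244-58926293, same annotation) ranged from 9.02 to 10.15 with a median of 9.49 in ethanol-treated mice, and from 8.79 to 9.92 with a median of 9.27 in controls. Of the 20 ethanol-treated mice 17 lay above the control median, but the ranges overlapped almost whole. The difference of 0.21 (SE 0.10, 95% interval 0.02 to 0.41) missed both thresholds by limma (adjusted p = 0.11).

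On chip 3 the groups separated. The ethanol-treated mice had Slc17a6 levels of 9.76, 9.84, 9.65 and 9.49, and the controls 9.20, 9.18, 9.30 and 9.05. Every ethanol-treated mouse was above every control, and the difference was 0.50 (SE 0.08, limma adjusted p = 0.0016). Between chips 1 and 2 and chip 4 it was 0.11 (SE 0.12, limma adjusted p = 0.55).

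Within chips 1, 2 and 4 the even positions were 0.28 below the odd ones (SE 0.09, limma adjusted p = 0.031), which is the order that the 2 treatments have on chip 3. The split was clear on chip 4, where controls at odd positions held 9.41 to 9.92 and controls at even positions 8.79 to 9.33. On chip 1, by contrast, the mean was 9.28 at odd and 9.34 at even positions. Among odd positions alone the treatment difference was -0.01 (SE 0.14), and among even positions 0.24 (SE 0.08, limma adjusted p = 0.10). With chip and position in the model it was 0.22 with a 95% interval from -0.11 to 0.55.

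Slc17a6 varied between mice more than most genes. Its SD within groups was 0.29, larger than that of 98.6% of tested probes, whose median SD was 0.13. Markers of the olfactory bulb, a region rich in neurons that use this transporter, moved with it. Over all arrays 0 of the 6 tested olfactory bulb genes passed at FDR 10% by limma, and 0 at an unadjusted p below 0.05, with a median difference of 0.14. On chip 3, 4 of 6 were higher in ethanol-treated mice at FDR 10%: Calb2 by 1.31, Doc2g by 0.82, Trh by 0.75 and Sp8 by 0.31. Of all tested probes 7.93% were higher there. Between chips 1 and 2 and chip 4 the median difference of the list was -0.0053. Within chips 1, 2 and 4 its median for even minus odd positions was -0.33. The summed signal of the 6 genes on chip 3 was 3755 to 4972 in ethanol-treated mice and 1612 to 3091 in controls, without overlap. Over all arrays it spanned 1509 to 9175 and 1016 to 4893.

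The list's mean standardized level and Slc17a6 had a Pearson r of 0.71 over the 32 mice (permutation p = 2e-05, adjusted 0.00012) and a Spearman rho of 0.68 (permutation p = 2e-05, adjusted 0.00012). Without the 2 mice farthest from the median of the list, r was 0.63. Within chips it was 0.35, 0.73, 0.81 and 0.90 on chips 1 to 4, and 0.52 after the mean of each chip and position was subtracted. The relation was positive in ethanol-treated mice (0.57) and in controls (0.91). The same list and Slc17a7 had a Pearson r of -0.36 (permutation p = 0.042, adjusted 0.063) and a Spearman rho of -0.37 (permutation p = 0.037, adjusted 0.055), and 0.03 after the same subtraction. Of the 11 olfactory bulb genes on the array, Eomes, Tbx21, Shisa3, Dlx2 and Synpr were not detected on enough arrays to be tested. Calb2 also marks cortical interneurons and thalamus. Of 5 tested thalamus genes Calb2, Ntng1 and Zic1 were higher on chip 3 at FDR 10%, as were 7.93% of all tested probes. The part of olfactory bulb or thalamic tissue in the Slc17a6 result was not tested.

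**Figure D2:**
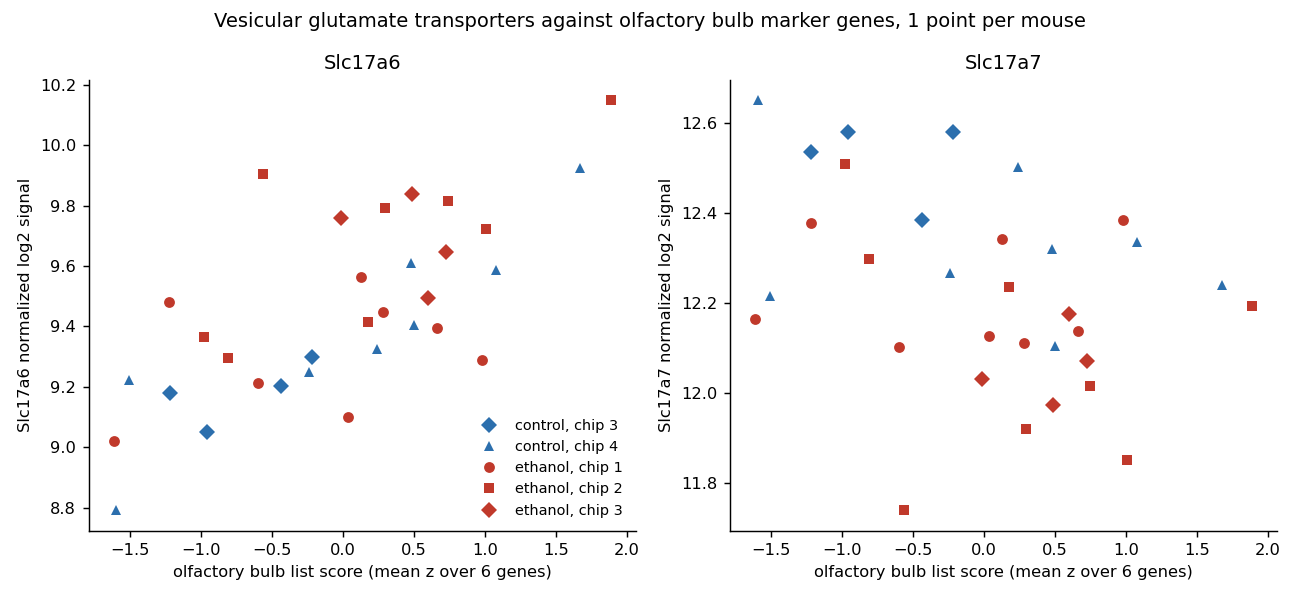
Normalized log2 signal of Slc17a6 (left) and Slc17a7 (right) against the mean standardized level of 6 olfactory bulb genes, 1 point per mouse, with colour for treatment and shape for chip. Slc17a6 goes with the list (Pearson r 0.71), and on chip 3 the ethanol-treated mice lie to the upper right of the controls.

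The 2 vesicular transporters were inversely related over the mice, with a Pearson r of -0.61 (permutation p = 0.00028, adjusted 0.00058) and a Spearman rho of -0.56 (permutation p = 0.0011, adjusted 0.0033). Without the 2 mice farthest from the Slc17a7 median r was -0.49. Within chips it was 0.47, -0.60, -0.95 and -0.56 on chips 1 to 4. After the mean of each chip and position was subtracted it was -0.11, so the relation did not hold within these sets. These permutation tests treat the mice as interchangeable across chips and positions, and 6 relations were computed in all.

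The neuronal carrier Slc1a1 gave different answers by its 2 tested probes. ILMN_1225873 (chr19:28988294-28988343) ranged from 10.74 to 11.15 with a median of 10.89 in ethanol-treated mice, and from 10.77 to 11.24 with a median of 11.03 in controls. Of 20 ethanol-treated mice 19 lay below the control median, with a difference of -0.12 (SE 0.04, limma adjusted p = 0.057). ILMN_1229397 (chr19:28986998-28987047) lies upstream on the transcript, with signals of 177 to 429. It ranged from 7.83 to 8.51 with a median of 8.16 in ethanol-treated mice and from 7.87 to 8.59 with a median of 7.95 in controls. It had 18 of 20 ethanol-treated mice above the control median and a difference of 0.11 (SE 0.06, limma adjusted p = 0.24). Over the mice the probes were weakly related, with a Pearson r of 0.19 (permutation p = 0.31, adjusted 0.31) and a Spearman rho of 0.11 (permutation p = 0.54, adjusted 0.54).

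By ILMN_1225873 the controls of chip 4 had the highest mean of any group on any chip (11.10). The ethanol-treated mice of chips 1 and 2 had means of 10.83 and 10.95, with mouse A28 of chip 2 at 11.15. The controls of chip 4 held 10.99, 11.13, 11.18, 11.24, 11.05, 11.13, 11.02 and 11.03. The controls of chip 3 held 10.86, 10.77, 10.84 and 10.96, all below those of chip 4, and the ethanol-treated mice of chip 3 held 10.85, 10.95, 10.98 and 10.99. It was the single transporter probe with no overlap between the controls of the 2 chips, a feature of 7.5% of all tested probes. Between chips 1 and 2 and chip 4 the treatment difference was -0.21 (SE 0.05, limma adjusted p = 0.0021), the 1 of 9 transporter probes past FDR 1% there, against 11.7% of all tested probes. On chip 3 it was 0.08 (SE 0.07, 95% interval -0.06 to 0.23), in the opposite direction. The 2 estimates differed by 0.29 (SE 0.08, limma adjusted p = 0.016).

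Slc6a11, the astrocytic GABA carrier, was lower in ethanol-treated mice at FDR 10%. It ranged from 7.79 to 8.88 with a median of 8.26 in ethanol-treated mice, and from 8.11 to 9.04 with a median of 8.41 in controls. The ranges overlapped widely, with 6 of 20 ethanol-treated mice below every control. The difference was -0.22 (SE 0.09, limma adjusted p = 0.087), and its SD within groups (0.28) exceeded that of 98.4% of tested probes. The call was also lost with normexp background correction (limma adjusted p = 0.11), with all probes of the array tested (0.18) and with chip as a random block (0.39).

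On chip 3 Slc6a11 did not pass. Ethanol-treated mice held 8.43, 8.38, 8.49 and 8.45, within the range of the controls at 8.27, 8.23, 8.74 and 8.60. The difference there was -0.02 with a 95% interval from -0.23 to 0.18, and that between chips 1 and 2 and chip 4 was -0.29 (SE 0.12, limma adjusted p = 0.072). The 2 estimates differed by 0.26, with a 95% interval from -0.17 to 0.69 (limma adjusted p = 0.46).

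High Slc6a11 levels gathered in controls at the odd positions of chip 4, which held 8.77, 9.04, 8.93 and 8.50, while controls at its even positions held 8.11, 8.32, 8.27 and 8.28. Among odd positions, where all controls are from chip 4, the treatment difference was -0.53 (SE 0.12, limma adjusted p = 0.0077). Among even positions it was -0.08 (SE 0.11, limma adjusted p = 0.75). Whether these differ from each other was not tested, and this split was made after the values were seen. Of 10 tested astrocyte markers, Aqp4 and Acsbg1 were higher and Atp1b2 lower in ethanol-treated mice at FDR 1% by limma, with a list median of 0.02. Of all tested probes 3.65% were higher and 4.53% lower at that threshold. The summed signal of the astrocyte markers, which is not normalized, spanned 12172 to 18649 in ethanol-treated mice and 6770 to 17066 in controls. Control mouse C66, whose array had the lowest median signal, had a mean standardized level of the list of 0.06. The other controls had -0.90 to 0.53. Gfap and Slc4a4 were on the array but not tested. The part of astrocytes in the Slc6a11 result was not tested.

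Slc6a17, the vesicle carrier of neutral amino acids, was slightly lower in ethanol-treated mice. Its probe (chr3:107270474-107270523) ranged from 10.44 to 10.96 with a median of 10.69 in ethanol-treated mice and from 10.64 to 11.03 with a median of 10.80 in controls. The difference was -0.13 (SE 0.05, limma adjusted p = 0.044), with 16 of 20 ethanol-treated mice below the control median. On chip 3 the ethanol-treated mice held 10.65, 10.80, 10.69 and 10.65 and the controls 10.93, 10.77, 10.93 and 11.03. One control, C54, lay below the highest ethanol-treated mouse, and the difference was -0.22 (SE 0.07, limma adjusted p = 0.063).

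Slc6a17 also differed by position. Even positions were above odd ones by 0.16 within chips 1, 2 and 4 (SE 0.04, limma adjusted p = 0.0092), the 1 of 9 transporter probes past FDR 1% in that comparison, against 3.22% of all tested probes. The means at odd and even positions were 10.69 and 10.82 on chip 1, 10.50 and 10.70 on chip 2, and 10.69 and 10.84 on chip 4. With chip and position in the model the treatment difference was -0.06 with a 95% interval from -0.22 to 0.10.

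Slc6a15 did not differ detectably over all arrays, yet did on chip 3. By its tested probe (chr10:102880722-102880771) the ethanol-treated mice ranged from 9.16 to 9.89 and the controls from 9.03 to 9.85, with medians of 9.44 in both. The difference was 0.01 with a 95% interval from -0.15 to 0.16. On chip 3 the ethanol-treated mice held 9.41, 9.46, 9.47 and 9.46, all below the controls at 9.80, 9.76, 9.85 and 9.54. That difference was -0.29 (SE 0.07, limma adjusted p = 0.022), whereas between chips 1 and 2 and chip 4 it was 0.16 (SE 0.08, limma adjusted p = 0.17).

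These estimates for Slc6a15 were of opposite sign and differed by -0.44 (SE 0.14, limma adjusted p = 0.035). Even positions were 0.23 above odd ones within chips 1, 2 and 4 (SE 0.06, limma adjusted p = 0.013), and on chip 3 the controls are the even positions. Controls at even positions held a mean of 9.74 on chip 3 and 9.44 on chip 4. The other Slc6a15 probes, ILMN_2689230 and ILMN_1245258, were detected on 3 arrays and 1 array, with signals of 136 to 209 near the background, and say nothing on this.

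Slc38a2, a glutamine carrier known to be induced when cells lack amino acids, was higher in ethanol-treated mice on chip 3 by both tested probes. By ILMN_2955671 (chr15:96517972-96518021) the ethanol-treated mice held 10.22, 9.88, 9.85 and 9.93 and the controls 9.23, 9.31, 9.43 and 9.79, without overlap. The difference was 0.53 (SE 0.11, limma adjusted p = 0.0050). By ILMN_1244123 (chr15:96528377-96528426) they held 10.39, 10.09, 10.09 and 9.99 against 9.76, 9.82, 9.82 and 10.01. Here the highest control, C56, lay just above the lowest ethanol-treated mouse, and the difference was 0.29 (SE 0.09, limma adjusted p = 0.041). This second call was lost with normexp background correction (0.33, limma adjusted p = 0.11) and with median scaling (0.25, limma adjusted p = 0.13).

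Elsewhere Slc38a2 showed no such difference. Between chips 1 and 2 and chip 4 the differences were -0.07 (SE 0.08) by ILMN_2955671 and -0.10 (SE 0.08) by ILMN_1244123, with adjusted p-values of 0.59 and 0.40 by limma. Over all arrays ILMN_2955671 ranged from 9.22 to 10.22 (median 9.72) in ethanol-treated mice and from 9.23 to 9.87 (median 9.59) in controls, and ILMN_1244123 from 9.65 to 10.39 (median 10.10) and from 9.76 to 10.50 (median 10.07). Their ranges overlapped, and the differences were 0.08 and 0.03, with 95% intervals from -0.08 to 0.25 and from -0.12 to 0.17. The difference on chip 3 exceeded that between the other chips by 0.60 (SE 0.15, limma adjusted p = 0.0084) for ILMN_2955671 and by 0.38 (SE 0.12, limma adjusted p = 0.038) for ILMN_1244123.

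For ILMN_2955671 even positions differed from odd ones by -0.06 within chips 1, 2 and 4 (SE 0.07, limma adjusted p = 0.64). With chip and position in the model the treatment difference was 0.48 with a 95% interval from 0.18 to 0.77 (limma adjusted p = 0.23). For ILMN_1244123 even positions were lower by 0.13 (SE 0.06, limma adjusted p = 0.11), and the corresponding difference was 0.16 with an interval from -0.07 to 0.38. The 2 probes went together over the mice, with a Pearson r of 0.61 (permutation p = 0.00029, adjusted 0.00058), a Spearman rho of 0.49 (permutation p = 0.0050, adjusted 0.010) and an r of 0.53 after the mean of each chip and position was subtracted. Without the 2 mice farthest from the median of ILMN_1244123, r was 0.58, and within chips it was 0.63, 0.63, 0.94 and 0.21 on chips 1 to 4. The third Slc38a2 probe, ILMN_2721692, which holds the AATAAA signal, was detected on 4 arrays with signals of 136 to 226.

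Slc38a1, the related neuronal glutamine carrier, could not be compared. Its probe (chr15:96405544-96405593) had signals of 159 to 212 in ethanol-treated mice and 142 to 185 in controls, and was detected in 2 ethanol-treated mice and 0 controls. The detected and undetected probes of the 8 genes are set side by side in the plot of deposited signals.

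**Figure D3:**
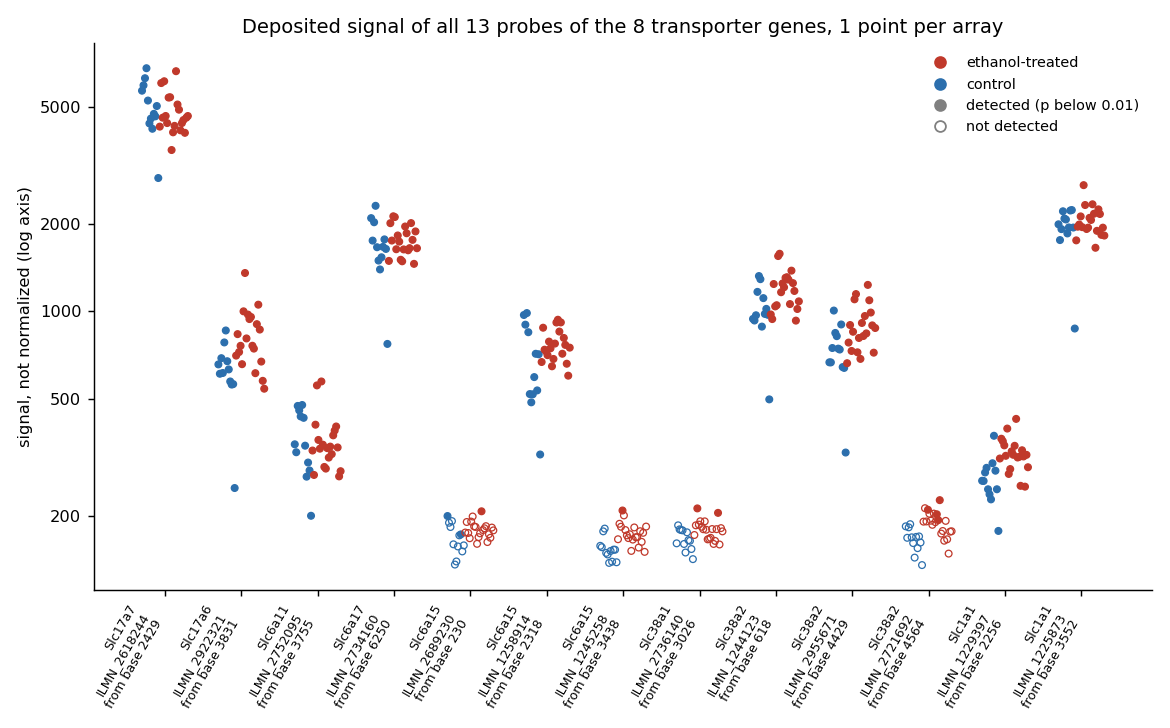
Deposited signal (log axis, not normalized) of all 13 probes, 1 point per array, with controls in blue at the left and ethanol-treated mice in red at the right of each probe. Filled points were detected and open points were not, and the lower labels give the first base of the probe on its transcript. The 9 tested probes are filled on all 32 arrays, and the other 4 lie between 136 and 226.

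The transporters that passed differed between sets of arrays. On chip 3, 6 of 9 probes passed at FDR 10% against 16.3% of all tested probes, with 3 lower (Slc17a7, Slc6a15, Slc6a17) against 8.37% and 3 higher (Slc17a6 and both Slc38a2 probes) against 7.93%. At FDR 1% these were 3 of 9 (Slc17a7, Slc17a6 and Slc38a2 ILMN_2955671), against 3.24%. The groups did not overlap for 4 of 9, against 15.2% of all tested probes. The genes were chosen with earlier results of these data known, and Slc38a2 is counted by both its tested probes. These counts therefore do not test whether transporters changed more often than other genes. Leaving out 1 of the 8 mice at a time gave 4 to 6 probes at FDR 10%, with 4 without ethanol-treated mouse A46 or control C55. Between chips 1 and 2 and chip 4, by contrast, 2 of 9 passed at FDR 10%, Slc1a1 ILMN_1225873 and Slc6a11, against 32% of all tested probes.

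In the comparison of positions within chips 1, 2 and 4, 4 of 9 passed at FDR 10%, against 20.3% of all tested probes. Slc17a7, Slc6a17 and Slc6a15 were higher at even positions (10% of all tested probes) and Slc17a6 lower (10.3%). On chip 3, where the even positions are the controls, these 4 probes differed in the same sense. Neither Slc38a2 probe was among them, but ILMN_1244123 missed narrowly (-0.13, limma adjusted p = 0.11), in the same sense as on chip 3. Position and treatment on chip 3 itself cannot be told apart. The chip 3 difference itself departed from that between the other chips at FDR 10% for 4 of 9 probes, both of Slc38a2, Slc6a15 and Slc1a1 ILMN_1225873, against 15.9% of all tested probes. Oligodendrocyte markers also differed on chip 3, with 7 of 10 tested genes lower in ethanol-treated mice at FDR 10%, against 8.37% of all tested probes. Their median difference was -0.37, and their summed signals were 20756 to 29765 in ethanol-treated mice and 27461 to 41201 in controls. Their part in the transporter results was not tested.

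**Figure D4:**
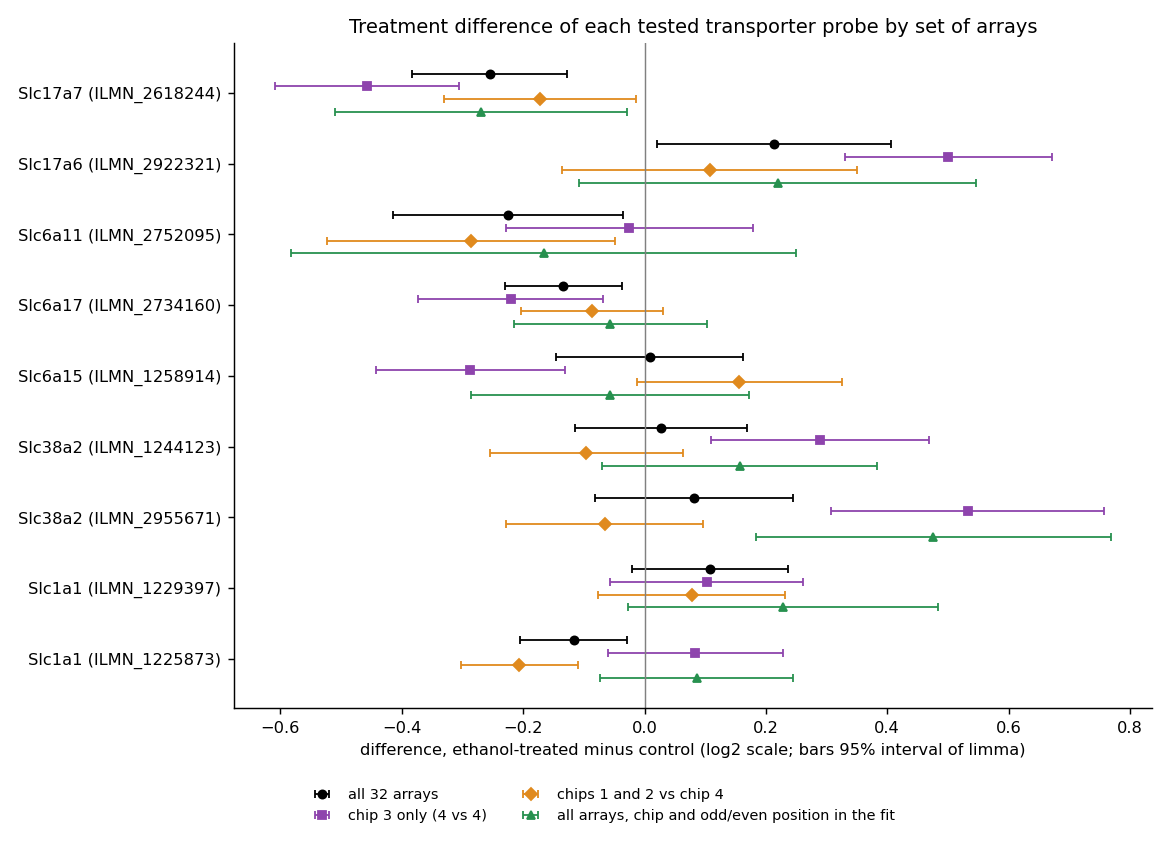
Difference between ethanol-treated mice and controls (log2 scale, horizontal axis) for each tested transporter probe, with 95% intervals from limma, over all 32 arrays, on chip 3, between chips 1 and 2 and chip 4, and over all arrays with chip and position in the model. The last of these is the chip 3 difference adjusted by the position difference of the other chips, and the estimates share arrays. Slc17a7 lies below 0 in all 4, while Slc6a15, both Slc38a2 probes and Slc1a1 ILMN_1225873 change sign between chip 3 and the other chips.

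Other genes of the same pathways were read from the same fit. Of 33 listed transporters and enzymes of glutamate and GABA, 28 were on the array and 18 were tested. At FDR 1%, 2 of 18 passed, both higher in ethanol-treated mice, against 8.18% of all tested probes in either direction and 3.65% higher. At FDR 10%, 5 were higher and 1 lower, against 12% and 13.5% of all tested probes. The median difference was 0.05 over the 11 transporters and -0.02 over the 7 enzymes, beside a median of -0.0037 over all tested probes.

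Among carriers, Slc7a11, the cystine and glutamate exchanger, had a mean of 8.94 in ethanol-treated mice and 8.70 in controls (difference 0.23, SE 0.06, limma adjusted p = 0.0039), and was 0.36 higher on chip 3 (SE 0.08, limma adjusted p = 0.010). This call was lost with median scaling, with chip as a fixed or random block, at even positions only and without control mouse C66. Of the astrocytic glutamate carriers, Slc1a3 (GLAST) was 0.16 higher (SE 0.06, limma adjusted p = 0.055), and the brightest probe of Slc1a2 (GLT-1) differed by 0.05 (SE 0.04, limma adjusted p = 0.48).

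On the side of GABA, Slc32a1, which loads it into vesicles, was 0.12 higher (SE 0.05, limma adjusted p = 0.083) and 0.28 higher on chip 3 (SE 0.08, limma adjusted p = 0.038). Gad1, which makes GABA, was 0.30 higher by its brightest probe (SE 0.09, limma adjusted p = 0.014) and 0.58 higher on chip 3 (SE 0.09, limma adjusted p = 0.0012). Of 8 tested interneuron markers 0 passed at FDR 10% over all arrays by limma and 1 at an unadjusted p below 0.05. On chip 3 Calb2 and Dlx1 were higher at FDR 10%, as were 7.93% of all tested probes. Glul, the astrocytic enzyme that makes glutamine, was 0.15 lower over all arrays (SE 0.06, limma adjusted p = 0.081). On chip 3 it did not pass FDR 10% (limma adjusted p = 0.43). Gad2 was on the array but not tested.

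The genes whose levels followed each transporter most closely were ranked by Pearson r over the 32 arrays, after the mean of each combination of chip, treatment and position was subtracted. For Slc17a7 they were Sphk2 (0.82), Rph3a (0.78) and Garnl4 (0.78), and for Slc17a6 Wrb (0.81), Ddah1 (0.74) and Hirip3 (0.71). For Slc6a11 they were Usp22 (0.85), Ampd2 (0.83) and Pcbp3 (0.80). Slc6a15 was led by Atp6v0a1 (0.80) and Slc6a17 by Azin1 (0.72). The 2 probes of one gene had different leading genes, Arl4c (0.82) and Anp32a (0.68) for Slc1a1, and Sema4b (0.66) and Zkscan3 (0.67) for Slc38a2. These are the highest values among 10187 probes on shared arrays, and they describe likeness in these arrays alone.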

How the data were processed

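The authors deposited a bead summary table with no normalization between arrays. The deposited intensity of a probe is the brightness averaged over its beads on that array, with the standard error over beads, the number of beads (23 to 63 for the transporter probes) and a deposited p-value of detection. The software and background step behind them are not given in the sources used here. All 32 arrays were matched to mice through the labels, with 0 columns left over. After the Methods, which name lumi and limma, the deposited intensities were put through a variance-stabilizing transform rewritten from the bead errors, then quantile normalization, so that bright probes are on log2 units. A probe was tested if 24 or more of the 32 arrays detected it (p under 0.01). The fits used R 4.3.3, limma 3.58.1 and data.table (version 1.17.8) with no covariate, at FDR 1% (FDR 10% on chip 3 and for the difference between chips). Intervals are 95% and come from limma. Marker lists were scored as the mean of standardized values. Correlations used 100000 permutations (two-sided, smallest p 1e-05) in numpy 2.4.6 and scipy 1.17.1 under Python 3.11.15, tables were read by pandas 2.3.3, and figures were drawn by matplotlib 3.10.9.

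The transporters, the marker lists and the pathway genes were chosen with earlier results of these data known. Genes other than the transporters are named when they passed FDR 1% (with 1 exception), when they are core genes of glutamate and GABA handling, or when they lead in likeness (top 3 per probe), and markers from their lists. The exception and another listed gene are counted but not reported here by name. The number of arrays limits the precision. The settings changed in turn were the transform (plain log2), the background (normexp, offset 16), median scaling, other detection filters, chip as a fixed or random block, position as a covariate, array weights and leaving out arrays. Odd or even positions alone and the removal of mouse A29 were added after the data were seen. Two-group tests were checked on simulated data.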

Additional observations from a re-analysis of the deposited data

Results flagged for a closer look

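Mouse A29 on chip 2 stood apart for Slc6a11, with 8.88 where the next of the 8 ethanol-treated mice of that chip held 8.30. The gap was 0.683 of the range of the 8 values. Of 45 sets of arrays examined for such gaps this was the 1 found, and chance gives about 2.25. Without this mouse the difference of Slc6a11 over all arrays was -0.26 (limma adjusted p = 0.038).

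For 4 probes the treatment difference on chip 3 departed from that between chips 1 and 2 and chip 4, by the limma test of the difference itself. The chip 3 difference minus the other one was 0.60 for Slc38a2 ILMN_2955671 and 0.38 for Slc38a2 ILMN_1244123. It was 0.29 for Slc1a1 ILMN_1225873, from 0.08 on chip 3 and -0.21 between the other chips. For Slc6a15 ILMN_1258914 it was -0.44.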

How the results depend on the processing

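Over all arrays, 1 transporter probe and 2 pathway genes passed FDR 1%. With median scaling, chip as a fixed block, chip as a random block, chip as a fixed block with position, even positions only, or without control mouse C66, 0 and 0 passed. Of all tested probes these settings called, in the same order, 1.24%, 0.167%, 0.805%, 0.0196%, 0.0589% and 5.69%, against 8.18%. With position as a covariate (9.46%) 0 transporter probes and 2 pathway genes passed, and with all probes of the array 1 and 1. Counts at an FDR of 10% were 4 in place of 1. At odd positions only the 1 probe was Slc6a11, not Slc17a7. Median scaling also left 0 probes between chips 1 and 2 and chip 4 (5.49% of all), 0 for position (0% of all) and 1 in place of 4 (10.4% of all) for the difference between chips, whose median over all probes it moved to -0.12. Normexp left 0 for position (2% of all). On chip 3 normexp left 4 probes in place of 6 (10.7% of all; Slc6a17 and Slc38a2 ILMN_1244123 lost) and median scaling 5 (13.6%; Slc38a2 ILMN_1244123 lost). Leaving out each mouse of chip 3 gave 4 to 6 probes in place of 6.

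Slc17a7 kept its direction in every setting tried, with -0.46 with chip as a fixed block (limma adjusted p = 0.028) and -0.30 with chip as a random block (0.021). Small differences over all arrays turned for Slc6a15 (-0.29 with chip fixed, -0.056 with chip random, -0.057 with chip and position, -0.031 at even positions), for Slc1a1 ILMN_1225873 (0.084 with chip fixed, 0.086 with chip and position), for Slc38a2 ILMN_1244123 (-0.020 with position, -0.13 at odd positions), for Slc38a2 ILMN_2955671 (-0.030 at odd positions) and for Slc17a6 (-0.013 at odd positions). On chip 3 Slc6a11 lay between -0.10 and 0.069 when each mouse was left out, above 0 without control C55 and (0.022) without C56. A fit with chip as a fixed block takes the treatment difference from chip 3 alone, and the other causes were not tested. No paired analysis was possible because the groups share no replicate numbers.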
